A study of Mus musculus with 12 samples.

Results

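Ankle joints of Mmp8-/- mice with serum-transfer arthritis were compared with ankle joints of Mmp8-/- mice without arthritis. The members were all array features with a gene name, 23410 of the 28853 features in the table, read on 6 of the 12 arrays of the series. The Affymetrix Mouse Gene 1.0 ST array, which reads each transcript with many short probes, was hybridized with RNA from 1 mouse per array. The arthritic arrays were 08SE1187, 08SE1188 and 08SE1189, and the control arrays were 08SE1181, 08SE1182 and 08SE1183. In each sentence below that gives values mouse by mouse, the arrays follow this order. The other 6 arrays of the series came from Mmp8+/+ mice and entered the fit through the shared estimate of the spread.

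All mice were on the C57BL/6 strain, and all 6 were labelled as lacking Mmp8, controls included, a germline change that affects every cell. The arthritic mice, aged 6 to 8 weeks, received 150 µl of K/BxN serum by the intraperitoneal route on day 0 and once more on day 2, and the ankles were taken on day 7. The control mice were labelled as being without arthritis, and their age and any vehicle are not given in the sources used here. The methods state that the mice for the arrays were male. The whole ankle was ground to powder, so bone, marrow, cartilage, synovium, tendon, muscle, skin, fat, vessels and nerve could all have contributed RNA. Replicates are separate mice, so p-values measure the spread between mice.

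K/BxN serum carries autoantibodies against glucose-6-phosphate isomerase, an enzyme of glycolysis that is found everywhere in the body and also lies on the cartilage surface. The immune complexes act through Fc gamma receptors and complement C5a on mast cells, macrophages and neutrophils, and interleukin-1 and chemokines that attract neutrophils carry the inflammation forward. The transferred antibody replaces the work of the recipient's own T and B cells, so the model shows the effector phase of arthritis. Mmp8 is the neutrophil collagenase, stored in neutrophil granules and able to cut fibrillar collagen and several chemokines.

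The targeted gene was read first. On the log2 scale the Mmp8 signal was 4.82, 10.65 and 5.05 in the controls and 5.54, 4.64 and 4.67 in the arthritic mice. The library labelled as the control 08SE1182 therefore stood apart from the other 5, at a level near the Mmp8+/+ control mean of 10.85. A further control, 08SE1181, had an Xist signal of 10.92 where the other 5 lay between 4.66 and 5.24, and Y-linked Eif2s3y at 4.16 where the other 5 lay between 8.14 and 9.20. Xist is the RNA that coats the inactive X chromosome of female cells. Among the Mmp8+/+ arrays, control 08SE1178 also had Xist signal, and it was kept in the fit. Arrays 08SE1182 and 08SE1181 were kept, as labelled, in the main comparison. The counts below are also given without 08SE1182. Counts without 08SE1181 are given for the whole comparison and for some lists only, and other lists can lose calls without it too.

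**Figure D1:**
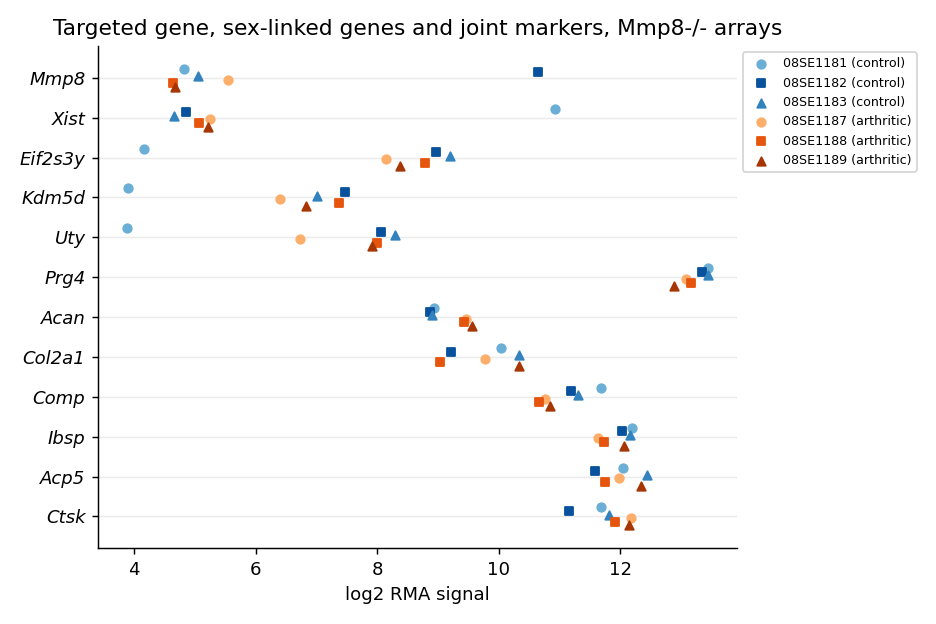
Each point is 1 array of the Mmp8-/- mice, with blue for control and orange to brown for arthritic mice, placed by its log2 signal for the targeted gene, for sex-linked genes and for markers of joint tissue. Control 08SE1182 has Mmp8 at 10.65, control 08SE1181 has Xist at 10.92, and Prg4 lies between 12.88 and 13.44 on all 6 arrays.

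Markers of the joint were present on every array. Prg4, the lubricin gene of synovium and cartilage surface, read 13.44, 13.35 and 13.44 in controls and 13.07, 13.15 and 12.88 in arthritic mice. The bone matrix gene Ibsp lay between 11.63 and 12.19, and the osteoclast gene Acp5 lay between 11.58 and 12.44, on the 6 arrays. Neither Prg4, Ibsp, Acp5 nor Col2a1, the main collagen of hyaline cartilage, passed the test. Other tissue was present too, with skeletal muscle Acta1 at 11.09 to 13.14 and epidermal Krt5 at 7.81 to 9.72. Median signals of the 6 arrays lay between 6.74 and 6.82. The controls correlated with each other over all features at 0.987 and the arthritic mice at 0.966 to 0.975. Between the groups the values ran from 0.932 to 0.977. Arthritic 08SE1189 was at 0.977 with control 08SE1183, above its 0.974 with 08SE1187 and 0.975 with 08SE1188. These values are a description over features that share 1 array design.

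The arthritic mice differed from the controls at many genes, with more genes lower than higher. At a false discovery rate (FDR) of 5% in limma, 3793 features changed, 16.2% of those tested, of which 1437 were higher (6.14%) and 2356 were lower (10.1%) in arthritic ankles. Without 08SE1182 the count was 2192 (9.36%), with 704 higher (3.01%) and 1488 lower (6.36%). Of the features called with all arrays, 664 higher and 1432 lower were also called without that array, 1697 were called only with it, and 96 were called only without it. All 3793 kept their sign without it. Without 08SE1181 the count was 1684, with 486 higher and 1198 lower. Values of the 3 arthritic mice lay outside the range of the 3 controls for 36.6% of all features.

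Counted as genes, with 1 feature for each of 19938 genes, 1290 rose and 2087 fell. The falls were also larger, since 766 genes fell and 189 rose by more than 1 on the log2 scale, a change of 2-fold. The median log2 change over all genes was 0.05 with 08SE1182 and 0.04 without it. Quantile normalization of the deposited values moved the share of lower features among those called from 62.1% to 52.9%.

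**Figure D2:**
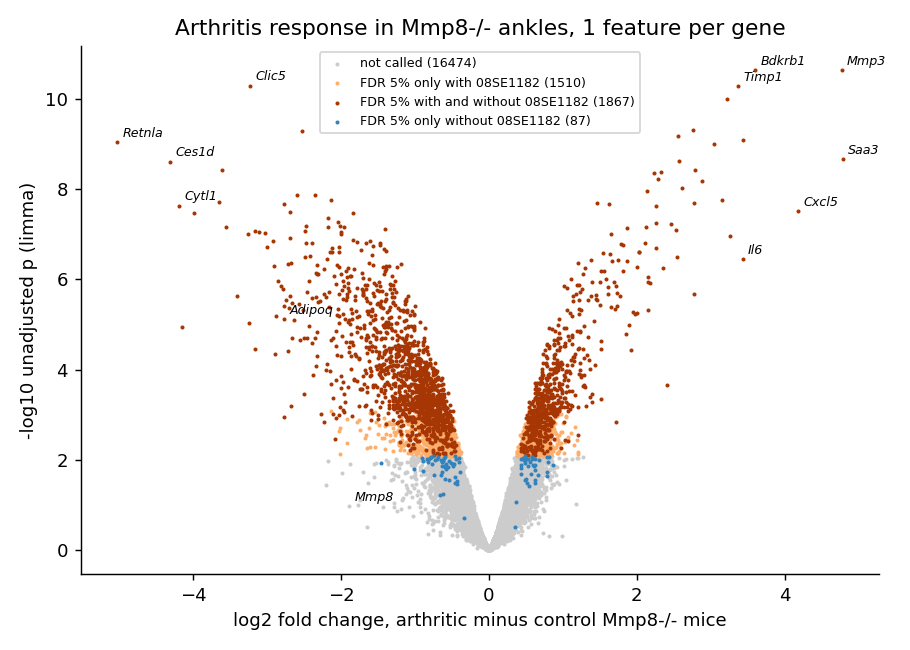
Each point is 1 gene, with the log2 fold change of arthritic over control Mmp8-/- mice across and the unadjusted limma p on a -log10 scale upward, coloured by whether the gene passed an FDR of 5% with and without 08SE1182. The 1867 genes called both ways form the outer arms, Mmp3 and Saa3 lie farthest to the right and Retnla farthest to the left.

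The genes with the largest rises among those called with and without 08SE1182 encoded an acute phase protein, a stromelysin, chemokines and receptors. Mmp3 is stromelysin 1, which degrades proteoglycan and activates collagenases. It read 6.79, 7.59 and 7.46 in controls and 12.06, 11.98 and 12.11 in arthritic mice. The lowest arthritic mouse was more than 4 log2 units above the highest control, and the log2 change of 4.77 ± 0.23 (SE) was a 27.3-fold rise (limma adjusted p = 2.77e-07). Saa3, an acute phase apolipoprotein made outside the liver, went from 7.03, 6.04 and 7.05 to 11.55, 11.23 and 11.71, a log2 change of 4.79 ± 0.33 and a 27.6-fold rise. Control 08SE1182 had the lowest Saa3 of the 3 controls, and without it the rise was 21.9-fold.

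Chemokines for neutrophils followed. Cxcl5, which acts on Cxcr2, was at 5.77, 6.79 and 6.47 in controls and at 10.19, 10.70 and 10.69 with arthritis, an 18.2-fold rise with a log2 change of 4.19 ± 0.36 (adjusted p in limma 2.11e-05). Cxcl2, a ligand of the same receptor, was at 5.72, 5.49 and 4.68 and rose to 8.22, 8.95 and 8.21, which was 8.93-fold. Il6, the cytokine that drives the acute phase response, had control values of 3.76, 3.51 and 4.17, at the dim end of the array, and arthritic values of 6.68, 7.75 and 7.29. Its groups did not overlap, and the rise was 10.8-fold with all arrays and 9.70-fold without 08SE1182.

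Bdkrb1, the inducible B1 receptor for kinins that takes part in pain and swelling, was among the most uniform changes. Its controls read 4.85, 5.22 and 4.89 and its arthritic mice 8.44, 8.83 and 8.48, a log2 change of 3.60 ± 0.17 (limma adjusted p = 2.77e-07). Timp1, the secreted inhibitor of metalloproteinases, climbed from 8.88, 8.24 and 8.74 to 11.95, 11.86 and 12.15, or 10.3-fold. Arg1, the arginase of alternatively activated macrophages, stood at 5.22, 5.95 and 5.93 against 8.90, 8.59 and 9.39, or 9.57-fold. For each of these the lowest arthritic mouse was more than 2 log2 units above the highest control.

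The other genes of the 12 largest rises were Chl1, Crabp2, Sfrp1 and Ddah1. Chl1, a cell adhesion molecule related to L1, rose 10.8-fold, with controls at 5.89 to 6.30 and arthritic mice at 9.09 to 9.78. Crabp2, a carrier of retinoic acid, rose 9.35-fold, and its arthritic values spanned 10.79 to 11.24. Sfrp1, a secreted Wnt antagonist, read 7.51, 7.75 and 7.29 against 10.78, 10.65 and 10.26, an 8.28-fold rise. Ddah1, which breaks down a natural inhibitor of nitric oxide synthase, rose 7.35-fold. In Mmp8+/+ mice the log2 changes of these 12 genes ran from 2.92 for Il6 to 5.36 for Mmp3.

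Proximal promoters are shown for the 3 of these genes in which a motif of NF-kappaB or AP-1 was found, and for Ptgs2, described below, because genes for such factors were among those called, the 4 having been picked after the search. The sequences are from RefSeq on GRCm38.p6, plus strand in all 4, and end at the base before the annotated start. The 250 bases before the start were searched on both strands, and the last 150 are printed, with matches in capitals to GGANTTTCC (NF-kappaB), TGANTCA (AP-1) or TTGCNNAA (C/EBP). They lie at chr9:7445672-7445821 for Mmp3, chr5:30012964-30013113 for Il6, chr5:90903749-90903898 for Cxcl2 and chr1:150099881-150100030 for Ptgs2.
Mmp3: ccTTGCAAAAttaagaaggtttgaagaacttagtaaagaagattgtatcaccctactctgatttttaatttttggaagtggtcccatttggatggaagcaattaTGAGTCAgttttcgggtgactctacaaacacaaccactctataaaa
Il6: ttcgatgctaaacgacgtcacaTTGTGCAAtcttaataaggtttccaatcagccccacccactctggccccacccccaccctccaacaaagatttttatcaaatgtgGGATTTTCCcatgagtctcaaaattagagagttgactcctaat
Cxcl2: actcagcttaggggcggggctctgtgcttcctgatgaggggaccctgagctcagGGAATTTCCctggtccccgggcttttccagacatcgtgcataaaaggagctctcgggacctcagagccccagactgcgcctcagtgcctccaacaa
Ptgs2: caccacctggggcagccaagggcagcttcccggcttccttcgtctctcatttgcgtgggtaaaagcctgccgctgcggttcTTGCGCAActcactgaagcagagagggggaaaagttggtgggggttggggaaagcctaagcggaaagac

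The Il6 window holds a further AP-1 match upstream of the printed bases, at position -249. Of the 12 genes, 7 had an entry in the promoter table, and the motifs for NF-kappaB, AP-1 and C/EBP were found in 2, 2 and 3 of them. Over all 32851 promoters of the table the same letters were found in 1.07%, 6.75% and 9.56%. The motifs do not overlap one another in the printed windows. A match describes the letters only, and which factor was bound was not measured.

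The largest falls included genes of macrophages, cartilage, bone, fat and synovial lining. Retnla, a secreted marker of alternatively activated macrophages, was at 10.16, 10.58 and 10.50 in controls and at 5.11, 4.91 and 6.13 in arthritic mice. No arthritic mouse came within 4 log2 units of any control, and the log2 change of -5.03 ± 0.32 (SE) was a 32.6-fold fall (limma adjusted p = 2.17e-06). Ces1d, a carboxylesterase that hydrolyses lipid esters, fell 19.8-fold, from 9.85, 9.49 and 9.76 to 5.14, 5.01 and 6.02. Cyp2e1, a cytochrome that oxidizes small molecules, and Fmo2, a flavin monooxygenase, fell 17.8-fold and 12.2-fold.

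Cartilage genes were prominent among these falls. Cytl1, a cytokine-like protein secreted by chondrocytes, read 12.11, 12.24 and 11.65 in controls against 7.16, 7.47 and 8.81 with arthritis, an 18.2-fold fall. Chad, chondroadherin, which binds chondrocytes to their matrix, was at 12.30, 12.49 and 11.70 against 7.75, 8.85 and 9.67, and the fall of 10.6-fold was graded, with 08SE1187 lowest and 08SE1189 nearest to the controls. Clec3a, a cartilage lectin, fell 11.8-fold. Phex, an endopeptidase of osteoblasts and osteocytes that controls phosphate and mineralization, showed the same order, at 6.39, 7.48 and 8.84 against 10.45 to 11.39.

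Angptl7, an angiopoietin-like secreted protein, fell 15.8-fold, and Scg3, a granin of secretory vesicles, fell 12.5-fold. The synovial lining genes Htra4, a secreted serine protease, and Clic5, a chloride intracellular channel protein, fell 9.56-fold and 9.39-fold. For Clic5 the arthritic values of 7.77, 7.61 and 8.19 were close together, and the standard error of the log2 change was 0.16. For Htra4 they spread from 8.33 to 9.72. All 24 genes were separated between the groups, and all 24 kept their calls without 08SE1182 by the rule that chose them.

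**Figure D3:**
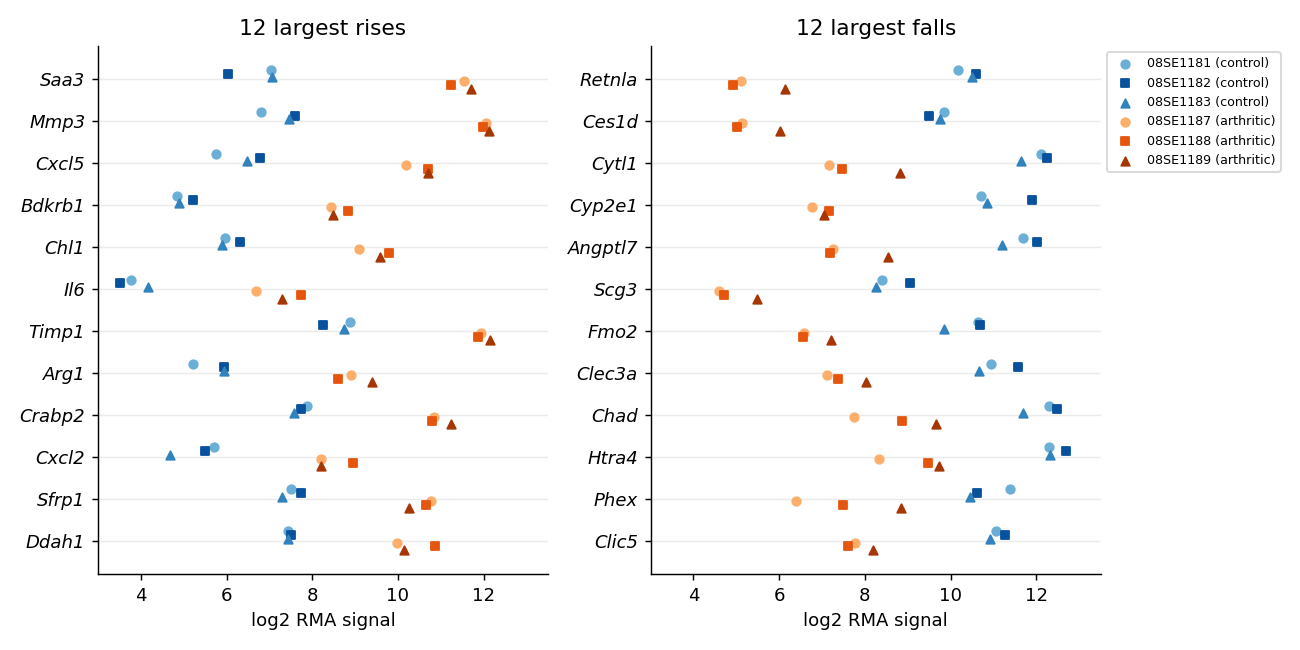
Log2 signal of the 12 largest rises (left) and the 12 largest falls (right), with 1 point per array, blue for control and orange to brown for arthritic Mmp8-/- mice. The arthritic points lie close together for rises such as Mmp3 (11.98 to 12.11) and are spread for falls such as Phex (6.39 to 8.84), where 08SE1189 is nearest to the controls.

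The distance from the controls differed among the 3 arthritic mice. Among the 766 genes that fell by more than 1 on the log2 scale, 08SE1189 was the arthritic mouse nearest to the control mean for 66.4% and 08SE1187 the farthest for 64.1%. The median differences from the controls over these genes were -1.66, -1.42 and -1.13. Among the 189 genes that rose by more than 1, the nearest mouse was 08SE1187 for 34.4%, 08SE1188 for 30.7% and 08SE1189 for 34.9%, with median differences of 1.48, 1.42 and 1.34. Among all 1290 genes called higher, 08SE1187 was the farthest for 56.7% and the nearest for 20.5%. Over all 19938 genes 08SE1187 was the farthest for 53.9% and 08SE1189 the nearest for 41.6%. These shares describe 3 mice and were not tested.

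Gene lists written by hand with earlier results of these arrays known were then read, in order from inflammatory signals to cells and matrix. Each is described by its counts and median, beside the median of 0.05 and the shares of 6.14% higher and 10.1% lower given above. Of 21 measured CXC chemokines and their receptors 9 rose and 3 fell, with a median log2 change of 0.24, and without 08SE1182 9 rose and 2 fell. Besides Cxcl5 and Cxcl2, the B-cell attractant Cxcl13 rose from 5.47, 4.89 and 5.35 to 7.53, 7.40 and 7.86. Cxcl9, a ligand for T cells that interferon gamma induces, fell from 7.76, 7.87 and 8.40 to 5.99, 6.77 and 6.38. The B-cell receptor Cxcr5 fell by 0.77 ± 0.16 (SE) on the log2 scale.

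Among 26 CC chemokines and receptors 8 rose and 4 fell, and 5 and 3 without 08SE1182. Ccl7, a monocyte attractant, went from 7.31, 6.97 and 7.04 to 9.33, 9.13 and 9.71. Ccl2, the main ligand of Ccr2 on monocytes, rose by 1.98 ± 0.27, and its arthritic values of 8.00, 8.28 and 8.86 lay above the highest control at 6.90. Ccl20, which attracts Ccr6-bearing lymphocytes, rose by 1.87 ± 0.17. The eosinophil attractants Ccl11 and Ccl24 had log2 changes of -1.45 ± 0.32 and -1.23 ± 0.23. Ackr2, a receptor that clears CC chemokines, fell by 0.93 ± 0.20.

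The interleukin-1 family held 5 rises and 2 falls among 17 genes, and 4 and 1 without 08SE1182. Il1b, the inflammatory cytokine on which this model depends, read 7.98, 8.31 and 8.54 in controls and 10.62, 10.48 and 10.70 with arthritis, a 5.01-fold rise with a log2 change of 2.33 ± 0.17 (limma adjusted p = 5.63e-06). Without 08SE1182 it was 5.07-fold. The decoy receptor Il1r2 rose alongside, from 6.73, 7.25 and 7.77 to 9.62, 9.10 and 9.49. Il1f9, now called Il36g, rose by 1.78 ± 0.22. Il1a moved the other way, at 5.31, 5.28 and 5.12 in controls and 4.39, 4.46 and 4.60 with arthritis, a log2 change of -0.75 between groups that did not overlap.

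In the interleukin-6 family 4 of 12 genes rose and 1 fell, and 3 and 1 without 08SE1182. Socs3, the feedback inhibitor of this pathway, rose by 1.69 ± 0.20 and oncostatin M, Osm, by 1.22 ± 0.23, while the receptor chain Lifr fell from 11.08, 10.46 and 10.49 to 8.46, 9.04 and 9.46. Of 23 genes of the TNF and NF-kappaB pathway 7 rose and 0 fell, which became 3 and 0 without 08SE1182 and 4 and 0 without 08SE1181. Tnfaip6, a hyaluronan-binding protein that TNF induces, rose from 8.60, 8.96 and 8.44 to 10.73, 11.49 and 10.57. The transcription factor subunit Nfkb2 rose by 0.95 ± 0.13 and its partner Bcl3 by 0.91 ± 0.17.

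Of 24 immediate early and AP-1 factors 10 rose and 1 fell, and 7 and 1 without either doubted control. Fos, a partner in AP-1, was at 8.68, 8.48 and 8.09 in controls and 9.36, 9.86 and 9.75 with arthritis. Cebpb, which binds acute phase promoters, rose by 1.16 ± 0.19 and the survival gene Ier3 by 1.25 ± 0.17. Klf4 fell by 0.83 ± 0.16, and it was the only fall in the list.

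Acute phase genes went both ways. Of 20 measured, 4 rose and 2 fell, and 3 and 2 without 08SE1182. Ptx3, a long pentraxin that opsonizes and binds complement, rose from 7.45, 6.84 and 7.37 to 10.03, 9.54 and 9.93, a 6.12-fold rise, or 5.37-fold without 08SE1182. Slc39a14, a zinc transporter that interleukin-6 induces, rose by 2.56 ± 0.16 on the log2 scale. The copper carrier ceruloplasmin, Cp, fell from 11.36, 11.16 and 10.98 to 8.03, 9.07 and 9.41, and orosomucoid, Orm1, fell by 1.13 ± 0.27, a call lost without 08SE1181 (limma adjusted p = 0.0689).

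Fc gamma receptors and complement, which the model acts through, held 6 rises and 6 falls among 27 genes, and 4 and 4 without 08SE1182. The high-affinity receptor Fcgr1 rose from 8.78, 8.55 and 9.14 to 9.75, 10.04 and 10.37. Complement factor I, Cfi, rose by 2.04 ± 0.21, and Masp1 of the lectin pathway by 1.30 ± 0.26. Membrane-bound inhibitors of complement fell. Cd59a, which blocks the membrane attack complex, was at 9.46, 9.50 and 8.99 in controls and 5.19, 6.24 and 7.82 with arthritis, and Cd55, decay accelerating factor and also a marker of the synovial lining, was at 9.61, 9.58 and 9.31 against 6.17, 7.33 and 6.94. Clusterin, Clu, fell by 1.33 ± 0.27.

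Among 23 genes of prostaglandin and leukotriene synthesis 3 rose and 6 fell, and 1 and 4 without 08SE1182. Ptgs2, the inducible cyclooxygenase, rose 5.83-fold, from 6.24, 6.83 and 6.40 to 8.61, 9.64 and 8.86. Hpgd, which inactivates prostaglandins, fell by 1.74 ± 0.35, and the prostacyclin synthase Ptgis fell by 1.21 ± 0.19. Of 12 mediators of pain and kinin signalling 4 rose and 0 fell, with and without 08SE1182. Prokr2, a prokineticin receptor, read 5.05, 5.20 and 5.37 against 6.99, 7.67 and 7.74, a 4.79-fold rise, and the substance P receptor Tacr1 rose by 0.99 ± 0.19.

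Genes induced by interferon had 1 rise and 5 falls among 29, with a median of -0.33, and 0 and 4 without 08SE1182. Gbp4, a guanylate-binding protein, fell from 7.81, 7.48 and 6.98 to 5.16, 5.55 and 5.47. Iigp1, a related GTPase, fell from 8.88, 8.87 and 8.99 to 4.72, 7.57 and 6.97, and the log2 change was -2.50 ± 0.52, with 08SE1187 far below the other arthritic mice. Oas1a was called higher by 0.82 ± 0.26, and that call was lost without 08SE1182 (limma adjusted p = 0.157) and without 08SE1181 (limma adjusted p = 0.142).

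Leukocyte genes did not move as 1 block. In ground joints, fewer cells of a type and less RNA per cell cannot be told apart. Of 23 genes of secondary granules and mature neutrophils 7 rose and 0 fell, with and without 08SE1182 and also without 08SE1181. The 3 largest rises were the lectin receptors Clec4d and Clec4e and the activating receptor Trem1. Clec4d read 7.08, 6.83 and 7.53 in controls and 9.62, 10.03 and 10.15 with arthritis, and Clec4e rose by 2.18 ± 0.26. The other called members, named after their values were seen, were Cxcr2, Csf3r, Il1f9 and Slfn4. The stored granule proteins of this list did not pass the test, among them lactoferrin, Ltf, with a log2 change of -0.79, Camp with -0.31 and Ngp with -0.65. The mean signal of the list minus the mean of the controls was -0.45, 0.15 and 0.30 in the controls and 0.59, 0.65 and 0.23 in the arthritic mice, so 08SE1189 lay below control 08SE1183. The median log2 change of the list was 0.41 with all arrays and 0.09 without 08SE1181.

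Primary granule genes, made by precursors in marrow, showed 1 rise and 1 fall among 15, and 1 and 0 without 08SE1182. Mpo, myeloperoxidase, read 9.76, 10.97 and 11.01 in controls and 9.56, 10.55 and 9.76 with arthritis, and Elane, neutrophil elastase, 9.53, 10.66 and 10.74 against 9.48, 9.94 and 9.41. For both, the range of the arthritic mice overlapped the controls, and 08SE1181 was the lowest control. The rise was in Cd63, a granule membrane protein found in many cells, by 1.17 ± 0.25.

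Macrophage and monocyte genes held 4 rises and 11 falls among 30, and 3 and 10 without 08SE1182. Besides Arg1, Cd14, the receptor that passes lipopolysaccharide to Tlr4, rose from 7.49, 7.06 and 7.35 to 8.99, 8.58 and 8.82, and the scavenger receptor Msr1 rose by 0.90 ± 0.17. Falls were found in markers of resident tissue macrophages. Besides Retnla, Lyve1, shared with lymphatic vessels, fell from 10.59, 11.26 and 10.12 to 7.15, 8.13 and 8.36, and Timd4, a receptor for dying cells, fell from 7.32, 7.40 and 7.50 to 5.21, 5.02 and 5.48.

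Mast cell genes had 1 rise and 3 falls among 16, and 1 and 2 without 08SE1182. Hdc, which makes histamine and is used by several myeloid cells, rose by 1.66 ± 0.16, whereas Kit, the receptor for stem cell factor, fell from 9.81, 9.72 and 9.57 to 7.94, 8.64 and 8.54. Mrgprb1 fell by 0.94 ± 0.20. Ms4a2, a chain of the high-affinity IgE receptor, fell with all arrays, but control 08SE1182 was its highest at 6.33, and the call was lost without that array (limma adjusted p = 0.146) and without 08SE1181 (limma adjusted p = 0.0742).

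B lineage genes had 0 rises and 14 falls among 25, with a median of -1.02, and 15 falls without 08SE1182. Ms4a1, the CD20 gene of B cells, read 8.57, 8.49 and 8.95 in controls and 5.24, 6.30 and 6.76 with arthritis, a 5.94-fold fall. Jchain, which joins secreted IgA and IgM, fell by 2.70 ± 0.36, and Cd79a, a chain of the B-cell receptor, from 9.05, 9.16 and 9.38 to 6.75, 6.82 and 8.03. The surrogate light chain gene Vpreb1 of early B cells did not pass, at 6.44 to 6.93 against 6.86 to 7.41. T and NK cell genes held 1 rise and 7 falls among 24, and 1 and 3 without 08SE1182. Cd2 fell from 8.82, 8.55 and 9.05 to 6.97, 6.84 and 7.50. Thy1, which fibroblasts also carry, was the rise, by 0.58 ± 0.16. Without 08SE1181 the list had 0 rises and 3 falls, and Thy1 was not called (limma adjusted p = 0.088).

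Class II antigen presentation had 1 rise and 1 fall among 14 genes, and 0 and 1 without 08SE1182. The cathepsin Ctss rose by 0.55 ± 0.15 with all arrays, but not without 08SE1182 (limma adjusted p = 0.0917) or 08SE1181 (limma adjusted p = 0.0723), and H2-Ob fell from 7.73, 7.74 and 8.43 to 6.95, 6.51 and 7.46. Erythroid genes had 0 rises and 4 falls among 25, and 1 fall without 08SE1182. Alas2, the first enzyme of heme synthesis in red cell precursors, read 8.71, 9.70 and 8.87 against 7.52, 7.85 and 8.25. Its call was lost without 08SE1182 (limma adjusted p = 0.126) and without 08SE1181 (limma adjusted p = 0.0521). Control 08SE1182 was highest there, and the mean erythroid signal of the controls ran from -0.48 to 0.50 around their own mean.

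Genes of mitosis and DNA replication had 12 rises and 0 falls among 44, with a median of 0.50. That count was 5 without 08SE1182 and 1 without 08SE1181, although the median stayed at 0.50 and 0.40. Kif20a, a kinesin of cytokinesis, read 7.28, 7.90 and 7.90 in controls and 8.30, 8.80 and 8.83 with arthritis, with 08SE1181 the lowest. Birc5, survivin, was at 6.53, 6.92 and 6.85 against 8.83, 7.32 and 8.10. Neither Kif20a nor Birc5 was called without 08SE1181 (limma adjusted p = 0.0604 and 0.0518).

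**Figure D4:**
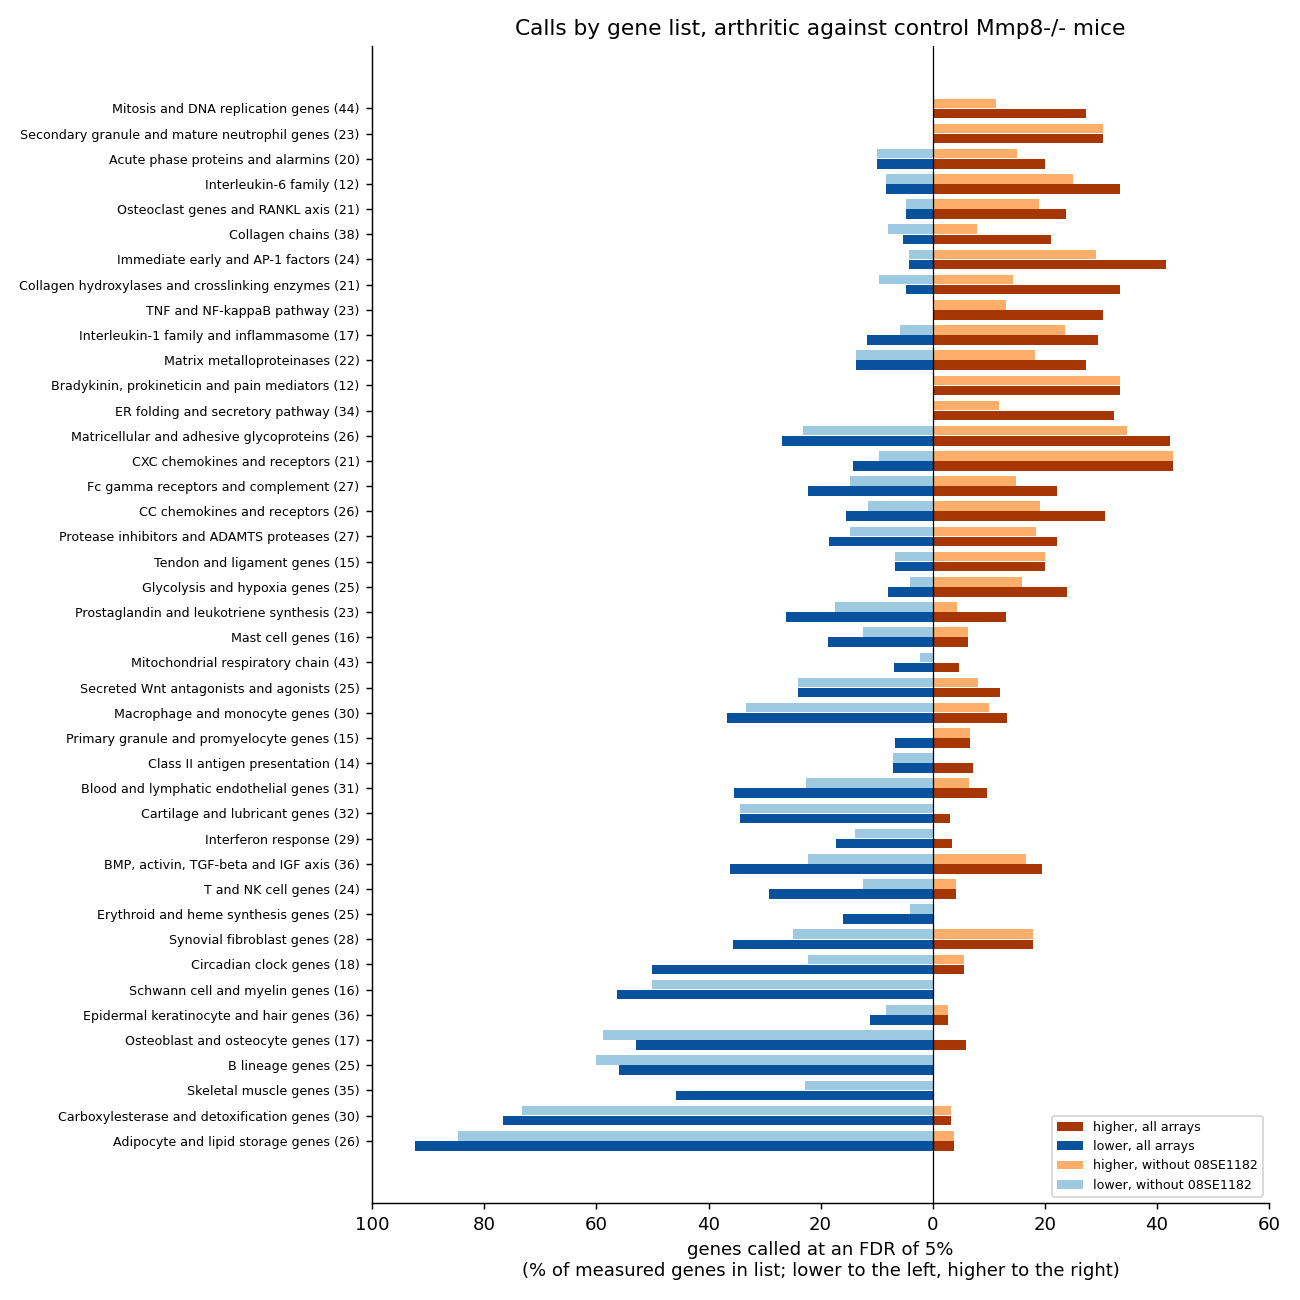
For each gene list, named with its number of measured genes, bars give the share called lower (left, blue) and higher (right, brown) in arthritic Mmp8-/- mice at an FDR of 5%, dark with all arrays and pale without 08SE1182. Lists are ordered by their median log2 change, from adipocyte genes with 24 of 26 lower at the bottom to mitosis genes with 12 of 44 higher at the top.

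Matrix-degrading enzymes changed one by one. Of 22 matrix metalloproteinases 6 rose and 3 fell, and 4 and 3 without 08SE1182. Besides Mmp3, Mmp19 rose from 7.71, 7.74 and 8.01 to 8.71, 9.23 and 9.18, and the collagenase Mmp13 rose by 0.85 ± 0.19 from a high level of 11.35 to 11.69. Mmp12, the macrophage elastase, fell from 7.40, 6.67 and 7.28 to 5.14, 5.38 and 5.95, and the log2 changes of Mmp16 and Mmp28 were -0.95 ± 0.27 and -0.69 ± 0.13. Mmp16 was not called without 08SE1181 (limma adjusted p = 0.127). Mmp8 itself had a log2 change of -1.89 ± 1.09 with 08SE1182 and 0.01 without it.

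Their inhibitors and the ADAMTS proteases had 6 rises and 5 falls among 27, and 5 and 4 without 08SE1182. Timp1 rose, whereas Timp4 fell from 8.06, 8.96 and 8.87 to 5.65, 5.38 and 6.30 and Timp3, which binds to matrix and also inhibits aggrecanases, from 10.89, 11.07 and 10.39 to 8.75, 9.71 and 9.14. The aggrecanase Adamts4 rose by 1.40 ± 0.16 and the plasminogen activator Plau by 1.27 ± 0.14. A2m, a plasma protease inhibitor, fell by 2.09 ± 0.58, and 08SE1181 at 10.74 was far above the other controls at 8.29 and 8.76. Without 08SE1181 A2m was not called.

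Collagen chains had 8 rises and 2 falls among 38, and 3 and 3 without 08SE1182. Col12a1, a collagen of tendon and fascia that sits on fibrils, rose from 9.43, 9.81 and 9.92 to 11.48, 11.55 and 11.12. Col8a2 and Col23a1 rose by 1.24 ± 0.22 and 1.03 ± 0.17. Col10a1, the collagen of hypertrophic cartilage, split the arthritic mice, at 6.85, 6.45 and 10.04 against 10.36 to 10.82 in the controls, and its call was lost without 08SE1181. Enzymes that hydroxylate and crosslink collagen had 7 rises and 1 fall among 21, and 3 and 2 without 08SE1182. P4ha3, a prolyl hydroxylase subunit, rose from 6.17, 6.26 and 6.03 to 9.54, 8.72 and 8.51, and Loxl3 and Plod3 rose by 1.14 ± 0.14 and 0.94 ± 0.15. Pcolce2 fell by 1.45 ± 0.24.

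Matricellular glycoproteins, which tune how cells hold to matrix, had the most changes of the matrix lists, with 11 rises and 7 falls among 26, and 9 and 6 without 08SE1182. Tnn, tenascin W, rose from 8.09, 8.02 and 8.57 to 10.21, 10.38 and 9.69. Periostin, Postn, rose by 1.56 ± 0.17 and versican, Vcan, by 1.62 ± 0.20. Vit, vitrin, fell from 9.59, 9.77 and 9.80 to 6.59, 6.76 and 7.73. Tnxb, tenascin X, fell by 2.32 ± 0.26 and Ccn3 fell by 2.03 ± 0.29. Tendon and ligament genes had 3 rises and 1 fall among 15, with and without 08SE1182. The tendon factor Scx rose by 0.73 ± 0.12 and Thbs4 by 1.05 ± 0.15, and Cilp2 fell by 0.78 ± 0.17.

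Cartilage and lubricant genes had 1 rise and 11 falls among 32, and 0 and 11 without 08SE1182. The rise was Acan, the aggrecan core protein, at 8.93, 8.87 and 8.90 against 9.45, 9.42 and 9.56, which did not overlap and did not pass without 08SE1182 (limma adjusted p = 0.111) or 08SE1181 (limma adjusted p = 0.119). The mean signal of the list minus that of the controls was -0.89, -0.86 and -0.37 in the 3 arthritic mice, so the changes were smallest in 08SE1189. Col2a1 read 10.04, 9.22 and 10.32 against 9.77, 9.03 and 10.33, and the groups overlapped.

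Osteoblast and osteocyte genes had 1 rise and 9 falls among 17, with a median of -0.76, and 0 and 10 without 08SE1182. Besides Phex, Omd, osteomodulin, read 8.78, 8.81 and 8.73 in controls and 5.95, 5.31 and 7.39 with arthritis, and alkaline phosphatase, Alpl, 10.33, 10.04 and 10.25 against 8.19, 8.34 and 8.95. Fgf23, the phosphate hormone of osteocytes, was the rise, by 1.11 ± 0.30, and was not called without 08SE1182 (limma adjusted p = 0.061) or 08SE1181 (limma adjusted p = 0.0611). Osteoclast genes had 5 rises and 1 fall among 21, and 4 and 1 without 08SE1182. Tnfsf11, RANKL, the cytokine that makes osteoclasts, rose from 8.62, 8.28 and 8.70 to 10.29, 9.92 and 9.43, and its decoy receptor Tnfrsf11b, osteoprotegerin, fell from 8.78, 8.61 and 8.04 to 6.36, 6.50 and 6.88. Oscar and Ocstamp, a receptor and a fusion protein of osteoclasts, rose by 0.91 ± 0.16 and 0.88 ± 0.17, and Ctsk, cathepsin K, read 11.15 to 11.82 against 11.91 to 12.17 without passing the test.

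Synovial fibroblast genes had 5 rises and 10 falls among 28, and 5 and 7 without 08SE1182. Besides Sfrp1, Sfrp2 rose from 8.93, 9.51 and 9.23 to 11.55, 12.02 and 11.79, and podoplanin, Pdpn, rose by 1.86 ± 0.28. Htra4, Clic5 and Cd55 were the largest falls. Among 25 secreted Wnt antagonists and agonists 3 rose and 6 fell, and 2 and 6 without 08SE1182. Frzb, a Wnt inhibitor of cartilage, fell from 8.88, 8.49 and 8.66 to 6.14, 6.14 and 6.70. The log2 change was -2.46 ± 0.38 for Wif1 and -1.64 ± 0.25 for Sfrp4. So Sfrp1 and Sfrp2 rose while Sfrp4 and Frzb, of the same family, fell.

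Growth factors of the BMP, activin, TGF-beta and IGF families had 7 rises and 13 falls among 36, and 6 and 8 without 08SE1182. Inhba, the activin A subunit, rose from 7.31, 7.66 and 7.43 to 9.23, 9.41 and 8.30, and Ltbp2 and Igfbp3 by 1.25 ± 0.24 and 0.79 ± 0.21. The Igfbp3 call was lost without 08SE1181 (limma adjusted p = 0.104). Gdf10 fell from 10.35, 10.67 and 10.11 to 7.34, 8.08 and 8.45. Igfbp6 and Bmp5 fell too, with log2 changes of -2.28 ± 0.29 and -1.75 ± 0.24.

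Fat genes fell almost as a whole. Of 26 adipocyte and lipid storage genes 1 rose and 24 fell, with a median of -2.05, and 22 fell without 08SE1182 and 22 without 08SE1181. Adipoq, adiponectin, read 10.90, 10.06 and 10.62 in controls and 6.85, 7.73 and 8.69 with arthritis, a 6.83-fold fall with a log2 change of -2.77 ± 0.39 (limma adjusted p = 0.000543). Aqp7, the glycerol channel, and Gpd1, an enzyme of glycerol phosphate synthesis, had log2 changes of -2.67 ± 0.29 and -2.69 ± 0.34. Mest, which is high in growing fat but also in other mesenchyme, rose from 8.36, 8.94 and 8.61 to 10.20, 11.21 and 10.29. Carboxylesterase and detoxification genes had 1 rise and 23 falls among 30, with a median of -1.38, and 1 and 22 without 08SE1182. The rise was Hmox1, heme oxygenase 1, from 9.51, 9.85 and 9.78 to 10.81, 11.06 and 10.94.

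Skeletal muscle genes had 0 rises and 16 falls among 35, with a median of -1.33. Their call depended on the arrays, with 8 falls without 08SE1182 and 5 without 08SE1181. Myl1, a myosin light chain, was at 11.48, 11.14 and 10.87 against 7.34, 7.92 and 10.18, and Myh2 at 11.12, 11.66 and 10.52 against 8.69, 7.97 and 10.26. The mean muscle signal of the arthritic mice minus that of the controls was -1.34, -2.01 and -0.67, so 08SE1189 kept the most. Energy genes were read next. Of 43 respiratory chain genes 2 rose and 3 fell, and 0 and 1 without 08SE1182. With all arrays these counts lie below the shares over all features of 6.14% higher and 10.1% lower. The falls included Cox7a1 and Cox8b, subunits used in muscle, at -1.76 ± 0.39 and -1.67 ± 0.47. Without 08SE1181 0 of the list rose and 0 fell. Among 25 glycolysis and hypoxia genes 6 rose and 2 fell, and 4 and 1 without 08SE1182, with the muscle enzyme Pfkm at -1.53 ± 0.38, a call lost without either doubted control. Hif1a rose from 10.64, 10.17 and 10.40 to 11.39, 11.91 and 11.56, and Pgk1 from 11.35, 11.44 and 11.43 to 12.21, 12.32 and 12.25. The part of muscle content in these values was not tested.

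Epidermal genes had 1 rise and 4 falls among 36, and 1 and 3 without 08SE1182. Their mean signal differed among the controls, from -0.65 to 0.56 around their mean, and the arthritic mice lay at -0.58, -0.84 and -0.61 from it. Krt5 read 9.07, 9.72 and 7.99 against 8.15, 8.42 and 7.81, and Krt14 8.16, 8.88 and 6.91 against 7.74, 7.19 and 6.89, and both overlapped. Sbsn, suprabasin, and Krtdap, both of the upper epidermis, had log2 changes of -1.27 ± 0.20 and -1.52 ± 0.23.

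Schwann cell and myelin genes had 0 rises and 9 falls among 16, and 8 falls without 08SE1182. S100b read 8.72, 8.13 and 8.52 in controls and 6.31, 6.10 and 7.03 with arthritis, and Pmp2, a myelin protein, and Drp2, a membrane protein of myelin-forming cells, had log2 changes of -1.89 ± 0.23 and -1.89 ± 0.31. Endothelial genes had 3 rises and 11 falls among 31, and 2 and 7 without 08SE1182. The falls were largest in lymphatic and sinusoidal genes. Mmrn1, a lymphatic gene, fell from 9.01, 9.66 and 9.18 to 6.25, 8.15 and 7.73, and Stab2, a scavenger receptor, had a log2 change of -1.66 ± 0.21. The rises included Aplnr, the apelin receptor, by 0.74 ± 0.16, and E-selectin, Sele, which binds rolling neutrophils, by 0.65 ± 0.19, and the Sele call was lost without 08SE1182 (limma adjusted p = 0.107).

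Clock genes had 1 rise and 9 falls among 18, and 1 and 4 without 08SE1182. Cry2, a repressor of the clock, fell from 9.08, 8.84 and 8.67 to 7.53, 7.43 and 7.05, and Nr1d1 from 10.62, 10.18 and 9.63 to 8.28, 9.04 and 8.67. The repressor Nfil3 rose by 1.13 ± 0.20. The hour at which ankles were taken is not given in the sources used here, and its part was not tested. Genes of folding and secretion in the endoplasmic reticulum had 11 rises and 0 falls among 34, and 4 and 0 without 08SE1182. Pdia5, a disulfide isomerase, rose from 8.35, 8.17 and 8.36 to 9.40, 9.67 and 9.46, Manf by 0.92 ± 0.20 and Creld2 by 0.88 ± 0.17.

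**Figure D5:**
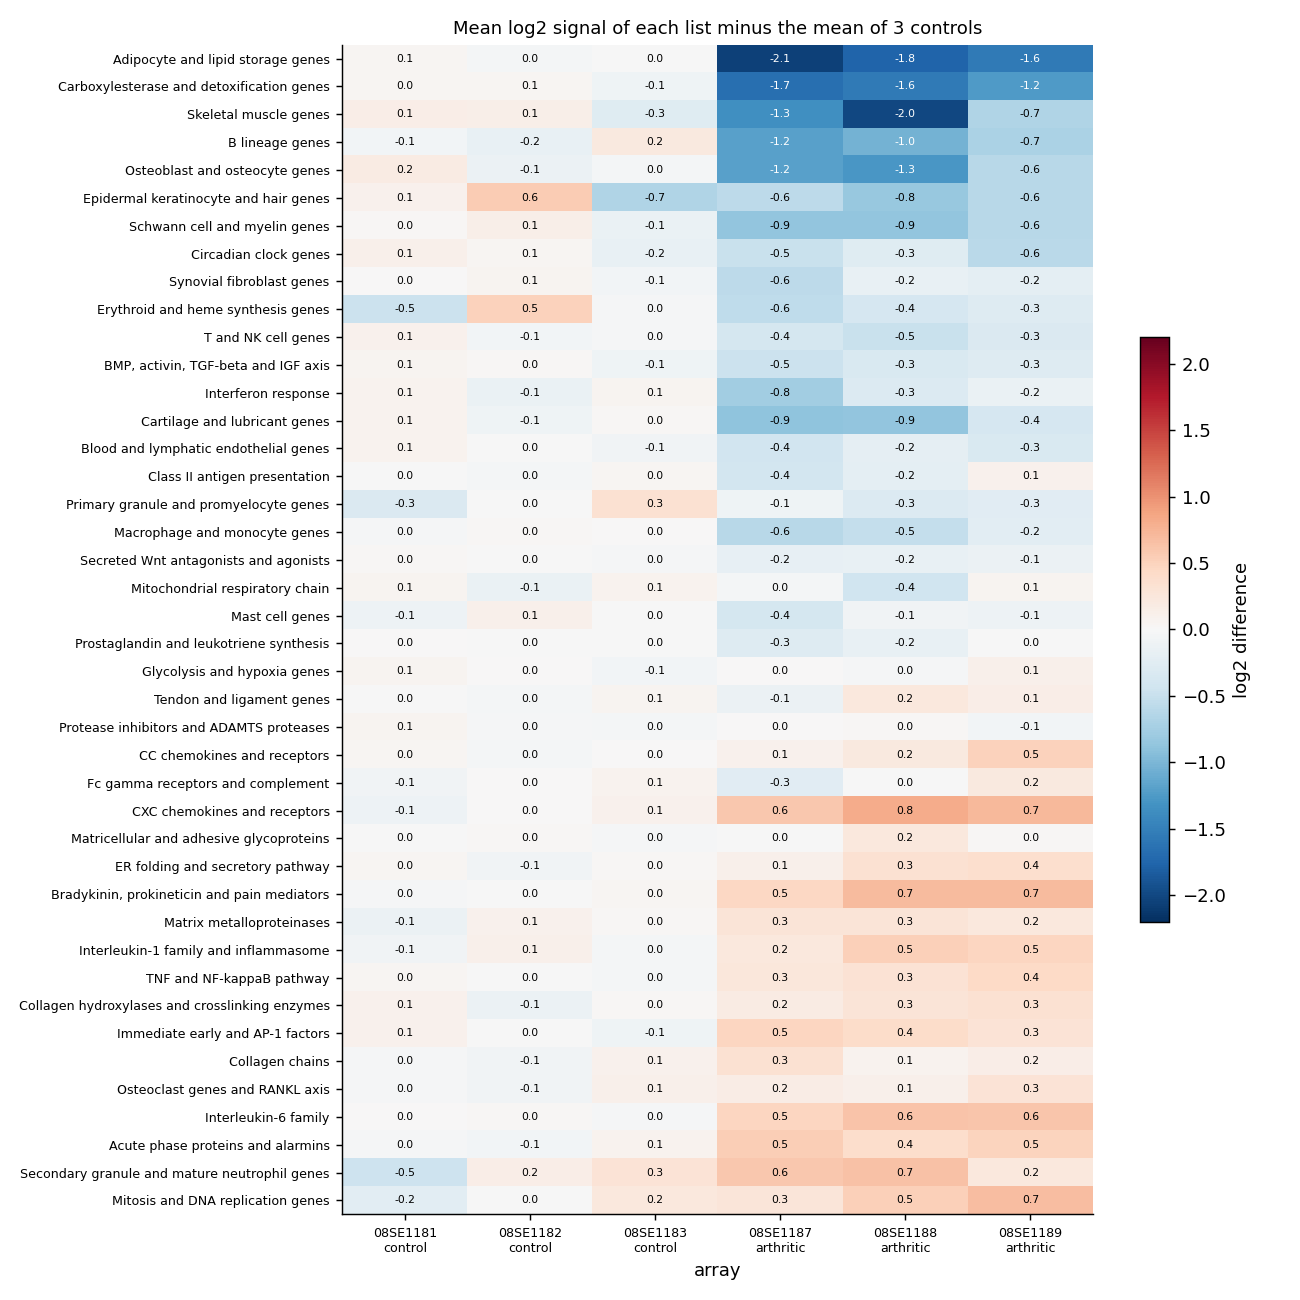
Mean log2 signal of each gene list (rows) on each Mmp8-/- array (columns) minus the mean of the 3 controls, with red for higher and blue for lower. Adipocyte genes lie at -2.06, -1.77 and -1.56 from the controls in the 3 arthritic mice, whereas muscle, cartilage and osteoblast genes are lower in 08SE1187 and 08SE1188 than in 08SE1189.

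Without 08SE1182, the array with Mmp8 signal, the call was lost for the 1697 features counted above, large changes such as Myh2 at -2.13 included. Leaving out a control also leaves fewer arrays, and fewer features were called without 08SE1181 (1684) than without 08SE1182 (2192). What the Mmp8 signal had to do with the lost calls was not tested. Those with the smallest p among genes called only with 08SE1182 were Cend1, Gltpd2, Lgals1, Myh3 and Htatsf1, with log2 changes of 0.62, 0.78, 0.64, -0.94 and -0.96. Their adjusted p in limma without that array was 0.0505 to 0.0534, just past the threshold. Called only without it were Col11a1, Psmb11, Spata1, Thoc2l and Tox3. Col11a1, a fibrillar collagen of cartilage, read 10.93, 9.77 and 10.82 in controls and 9.86, 9.77 and 9.72 with arthritis, so 08SE1182 sat among the arthritic mice, and the log2 change was -0.72 with it and -1.09 without it.

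Whether these changes differed from those of Mmp8+/+ mice was tested as the interaction of genotype and arthritis. In limma 0 features passed an FDR of 5%, and 746 had an unadjusted p below 0.05, against 0 and 708 without 08SE1182. Both 746 and 708 are fewer than the 5% of 23410 features that would, on average, have such a p with no interaction. Ordinary regression also gave 0. The smallest p belonged to Lrrc28, Krtdap, Mmp12, Gnat1 and Ephb1, each with an adjusted p of 1. Mmp12 changed by -1.62 in Mmp8-/- mice and by -0.03 in Mmp8+/+ mice, a difference of -1.59 with a 95% interval of -2.26 to -0.92 that takes no account of the number of features tested. Without 08SE1182 the difference was -1.81 (limma adjusted p = 0.755). The control means of Mmp12 also differed, at 7.11 in Mmp8-/- and 6.02 in Mmp8+/+ mice. The arthritic means were 5.49 and 5.99.

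The study followed 7 genes by PCR. Il1b changed by 2.33 in Mmp8-/- mice and 1.89 in Mmp8+/+ mice, a difference of 0.43 with an interval of -0.08 to 0.95. For Ptx3 the changes were 2.61 and 2.17, and for Prokr2 2.26 and 1.82, with intervals of the difference of -0.18 to 1.07 and -0.14 to 1.02. The changes were 4.77 and 5.36 for Mmp3 and 2.53 and 3.06 for C1qtnf3, a relative of adiponectin, with intervals of -1.29 to 0.11 and -1.25 to 0.19. These 5 intervals include 0. The other PCR genes were Tnn, with changes of 1.87 and 2.53 and an interval of -1.27 to -0.06, and Capn6, calpain 6, with 2.46 and 3.50 and an interval of -1.72 to -0.36, and these intervals do not include 0. The intervals take no account of the number of features tested, and all 7 genes had an adjusted p of 1 in limma. The study chose these genes on the same arrays, from those whose fold changes differed most between genotypes. The intervals are therefore no independent test of that difference, whether or not they include 0. In other mice, the paper's PCR found higher Il1b, Ptx3 and Prokr2 mRNA in arthritic Mmp8-/- than in arthritic Mmp8+/+ joints. Their proteins were also reported as higher. For Mmp3, C1qtnf3, Tnn and Capn6 the PCR did not bear out the array differences. The epidermal list had a median change of -0.72 in Mmp8-/- mice, or -0.38 without 08SE1182. In Mmp8+/+ mice it was 0.25, and these values are set side by side without a test.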

How the data were processed

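The authors extracted RNA from whole ankles, hybridized Affymetrix Mouse Gene 1.0 ST arrays and deposited RMA values in log2 units. RMA corrects background, normalizes by quantiles and summarizes probes, so values are relative, and array files from before RMA were not used here. RMA and Partek are named in the submitters' processing notes. The table has 12 columns of values, and 0 were left unused. The methods also dropped signals under background, a step that these values do not let one repeat.

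Features were named from GEO's platform annotation, with 1 symbol for 21789, several for 1621 and none for 5443, and 21698 of the first had an identifier in RefSeq (GRCm38.p6). A gene was represented by its 1-symbol feature of highest mean. Some listed genes had no such feature and were not analysed here.

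Group means of all 12 arrays were fitted with limma 3.58.1 in R 4.3.3, with 8 residual degrees of freedom and no covariate. Tests were two-sided, with Benjamini-Hochberg adjustment over 23410 features. Errors of log2 changes are standard errors. The fit was tested on simulated data. The number of arrays limits the precision.

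Members, lists and rules were chosen with earlier results of these data known. Named were the 12 largest rises and 12 largest falls called with and without 08SE1182, up to 3 rises and 3 falls called in each list, the 5 of smallest p called only with or only without 08SE1182, the 5 of smallest interaction p, markers, sex-linked genes, and Il1b, Ptx3 and Prokr2. Alternatives left out single arrays or controls 08SE1181 and 08SE1182 together, kept the 6 Mmp8-/- arrays alone, or changed the variance model, the array weights, the feature filter or the normalization. Leaving out both arrays with Xist signal, 08SE1181 and the Mmp8+/+ control 08SE1178, was added after seeing the data. Figures were drawn in Python with matplotlib.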

Additional observations from a re-analysis of the deposited data

Results flagged for a closer look

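Ephb1, a receptor of the ephrin family, moved in opposite directions in the genotypes. In Mmp8-/- mice its signal was 6.20, 6.40 and 6.38 in controls and 6.09, 6.02 and 5.88 with arthritis, a log2 change of -0.33, and in Mmp8+/+ mice the group means were 5.86 and 6.43, a change of 0.57. The difference of -0.897 had an adjusted p of 1 in limma. For the log2 change in Mmp8-/- mice, the other 1 of the gene's 2 features had the opposite sign. The sign of its genotype difference was not examined.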

How the results depend on the processing

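The count of 3793 features at an FDR of 5% ranged from 1684 to 4128 when 1 Mmp8-/- array was left out. It was 1684 without control 08SE1181, 2192 without control 08SE1182, 2048 without arthritic 08SE1187 and 407 without 08SE1181 and 08SE1182 together, where the lone control is assumed to vary like the other groups. It was 2291 with the 6 Mmp8-/- arrays alone, 2474 by ordinary regression on 12 arrays and 3 on 6 arrays. Without both arrays that had Xist signal, 08SE1181 and the Mmp8+/+ control 08SE1178, it was 1540, a choice made after seeing the data. Robust variances, array weights, the feature filter, features with 1 symbol, subtraction of array means and quantile normalization gave 2762 to 3996. Of 191 named genes called, 0 reversed under any of these, and 162 kept their call without 08SE1182 and 157 without 08SE1181. Part of that outcome was fixed by the naming rule. It took the 12 largest rises and 12 largest falls from genes called with and without 08SE1182. It also took 5 genes for being called only with that array. Over all features, 664 higher and 1432 lower of the 3793 were called without 08SE1182 too. The interaction gave 0 features under each of the alternatives that held the arrays of both genotypes. The fits on 6 arrays have no interaction. No paired analysis was run, since each array came from a separate mouse and the labels link no arthritic mouse to a control.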
